A study of Bos indicus with 9 samples.

Results

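The comparison described here sets corpora lutea of cows given a low dose of equine chorionic gonadotropin (eCG) against corpora lutea of untreated controls, across all genes on a bovine Affymetrix array. It takes 6 of the 9 arrays of the study: the 3 arrays whose titles call them stimulated and the 3 whose titles call them control, each from 1 cow. All animals were Nelore crossbred cows (Bos indicus) of 2 to 5 years whose cycles had been synchronised with progesterone devices and estradiol benzoate. On day 8 of the synchronisation, stimulated cows were also given eCG at 400 IU, whereas control cows were given none. The remaining 3 cows (superovulated) were dosed on day 4 with 2000 IU, so dose and day differ together, and enter here through the pooled estimate of spread and as a second group to compare with. Tissue was taken at slaughter on day 6 after ovulation. Follicle number, the number of corpora lutea per cow and blood progesterone are not among the values used here.

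The corpus luteum forms from the wall of the ovulated follicle and secretes progesterone, which prepares the uterus for pregnancy. Its steroid-making luteal cells lie in a dense bed of new capillaries, among fibroblasts, macrophages and other leukocytes. Equine chorionic gonadotropin is a long-lived placental hormone of the mare that, in cattle, binds the receptors of follicle-stimulating and luteinising hormone. A low dose near the end of a synchronisation program is used to support the growth of the ovulatory follicle, and a high dose to ovulate many follicles.

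Signals are read as log2 values, so a difference of 1 is a 2-fold change. After array controls were left out, 23962 probe sets could be tested, and 9132 genes were each represented by their brightest probe set. Within a group, pairs of arrays correlated at 0.991 to 0.994, and a stimulated with a control array at 0.99 to 0.994. The 3' minus 5' difference of the array's GAPDH control probe sets, a sign of RNA integrity, ran from -0.08 to -0.03 in control and from -0.02 to 0.00 in stimulated animals. That of the EEF1A control ran from -1.90 to -1.77 and from -1.77 to -1.6, while that of actin ran from -0.53 to -0.22 and from -0.46 to -0.28. Stimulated arrays were thus a little higher on GAPDH and EEF1A but not on actin, and the part of this in the results was not tested. Most luteal markers were bright. OXT, the luteal neuropeptide oxytocin, had signals of 13.60, 13.66 and 13.76 in control and 13.56, 13.74 and 13.78 in stimulated animals. Of 12 luteal cell markers 11 were measured. PGR, the progesterone receptor, was dim at 2.23 to 2.37 in these 6 animals, and LHCGR, described below, was of middle signal. Over 16 epithelial and oviduct markers the mean signal was 3.05 to 3.20 in control and 3.06 to 3.15 in stimulated animals, and 3.82 in the second superovulated animal. Among them KRT7, a keratin, lay between 2.41 and 2.78, but MSLN, a surface protein of mesothelium, had 6.32, 5.19 and 6.39 in control and 6.97, 6.30 and 6.39 in stimulated animals. HBB of red cells lay between 2.63 and 3.70.

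One gene passed the test. PRSS2, which encodes a trypsinogen, a precursor of the digestive protease trypsin, had signals of 8.24, 8.55 and 7.76 in the controls and of 2.51, 2.18 and 2.25 in the stimulated cows. The groups lay far apart, and the stimulated values sat at the dim end of the array, where 13.4% of probe sets had a lower mean. PRSS2 fell, with a difference of -5.87 on the log2 scale (SE 0.33, adjusted p = 0.00306, limma). It was the 1 probe set of 23962 called as lower, or 0.00417%, and 0 were called as higher. Without the third stimulated animal its adjusted p was 0.0503 at a log2 fold change of -5.83. Superovulated cows did not share the low level, with signals of 9.83, 8.94 and 8.57. The difference between stimulated and superovulated cows was -6.80 (SE 0.33) and passed as well (adjusted p = 0.00099). PRSS2 has 1 probe set on the array. No detection calls were used, so how far its low level lies from background is unknown. A list of pancreatic-type serine proteases and their inhibitors had 20 measured genes and a median of -0.018. Of these, PRSS2 alone had an unadjusted p under 0.05 (5% lower, against 3.04% of all genes).

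Across the 9132 genes most differences were small, and the larger ones were more often higher than lower. The median log2 fold change was -0.003, and the 5th and 95th percentiles were -0.39 and 0.47. Values above 1 were found for 114 genes and values below -1 for 59, and in 50 and 31 of these the animals of the groups did not overlap. Ranked by signal and cut into 3 equal bins, the middle bin held 130 genes beyond a 2-fold difference, the dim bin 25 and the bright bin 18. At an unadjusted p under 0.05, 384 genes were higher (4.2% of all) and 278 lower (3.04%), counts that serve below as the background for gene groups. Over all probe sets the same count was 881 higher (3.68%) and 652 lower (2.72%). Without the third control animal the count of higher probe sets was 555. In genes, 232 were then higher and 174 lower, and without the third stimulated animal 248 were higher.

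**Figure D1:**
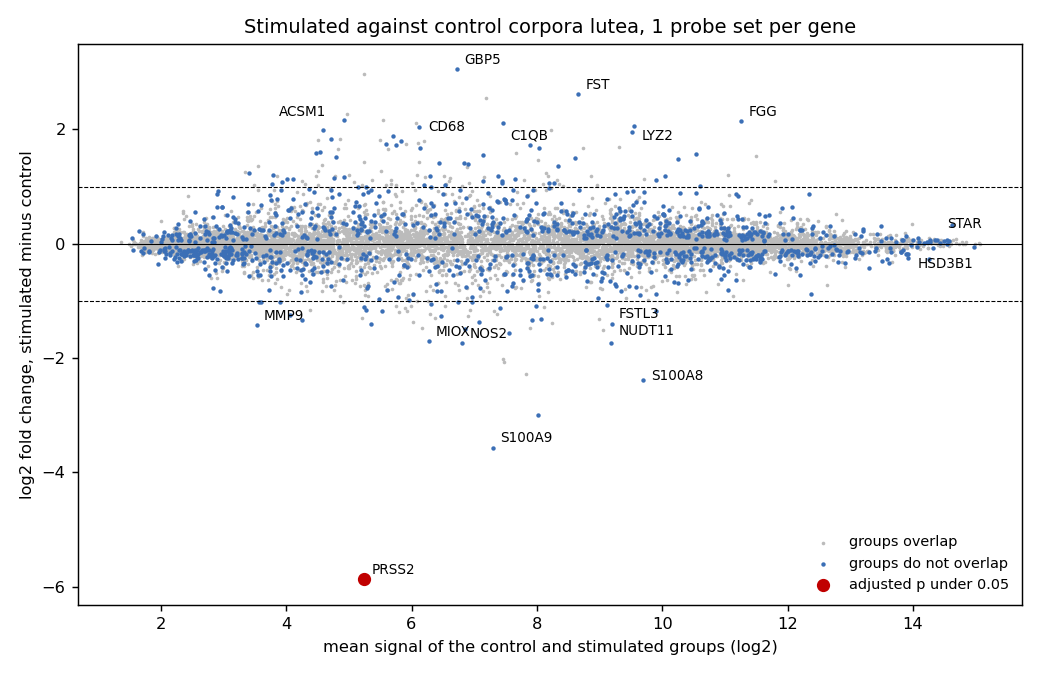
Mean log2 signal of the control and stimulated groups (horizontal) against the log2 fold change of stimulated minus control (vertical) for 9132 genes; dashed lines mark 2-fold differences. PRSS2 at -5.87 is the single point past the threshold, most genes lie between the dashed lines, and STAR and HSD3B1 sit at 0.03 and -0.04 at the bright end.

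The precision of the comparison allows a statement on genes that differed little. The median standard error was 0.135, with 5th and 95th percentiles of 0.06 and 0.49. For 7826 genes, 85.7% of all, the whole 95% interval of the difference lay within a 2-fold change in either direction. These include dim genes. The median SE was 0.10 in the dim bin (mean signals of 1.38 to 4.57), 0.21 in the middle bin and 0.12 in the bright bin. With no detection calls, small intervals in the dim bin do not show an unchanged transcript. The spread between animals was alike in the groups, with a median SD of 0.139 in control and 0.146 in stimulated animals. Where a gene had a second probe set, this had the same sign in 65.7% of 2906 genes, and in 172 of 213 genes (80.8%) with an unadjusted p under 0.05.

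The core of progesterone synthesis belonged to the genes measured with small intervals around no difference. STAR, which carries cholesterol into mitochondria, had 14.84, 14.63 and 14.80 in control and 14.79, 14.76 and 14.80 in stimulated animals. Its log2 fold change was 0.03 with a 95% interval from -0.17 to 0.23. CYP11A1, which cuts the cholesterol side chain, had 14.29, 14.10 and 14.10 against 14.14, 14.04 and 14.30, with an interval from -0.26 to 0.25. Both intervals lie well inside a 2-fold change. HSD3B1, which makes progesterone from pregnenolone, had an interval from -0.22 to 0.14. RGN, a calcium-binding protein among the luteal markers, stood lower at 13.47, 13.42 and 13.63 against 13.05, 13.02 and 13.18, by a difference of -0.42 (SE 0.11, adjusted p = 0.565). FDX1, the electron donor of CYP11A1, had -0.01 (SE 0.06), and SCARB1, the receptor that takes up cholesterol from lipoproteins, 0.02 (SE 0.10). SCARB1 and FDX1 were named after their values were seen. Signals above 14 are near the upper end of the array's range, where differences can be compressed.

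The other members of the 16 measured genes of progesterone synthesis were less uniform. The list's median was -0.0047, and 11 members had intervals within a 2-fold change. By an unadjusted p below 0.05, 0 were higher and 2 lower (12.5%, against 3.04% of all genes). NCEH1, an enzyme that frees cholesterol from its esters, had 6.92, 7.58 and 7.26 in control and 6.64, 6.47 and 6.41 in stimulated animals. All stimulated values lay below all controls, with a difference of -0.75 (SE 0.17, adjusted p = 0.529). A dimmer probe set of NCEH1 had -2.93 (SE 0.58). TSPO, a mitochondrial outer-membrane protein tied to cholesterol transport, had 10.61, 10.81 and 10.77 against 10.38, 10.51 and 9.38. Its groups did not overlap either, but the third stimulated animal set most of the log2 fold change of -0.64 (SE 0.27, adjusted p = 0.779). NR5A1, a nuclear receptor that drives steroidogenic genes, had -0.36 (SE 0.49) and was named after its value was seen.

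**Figure D2:**
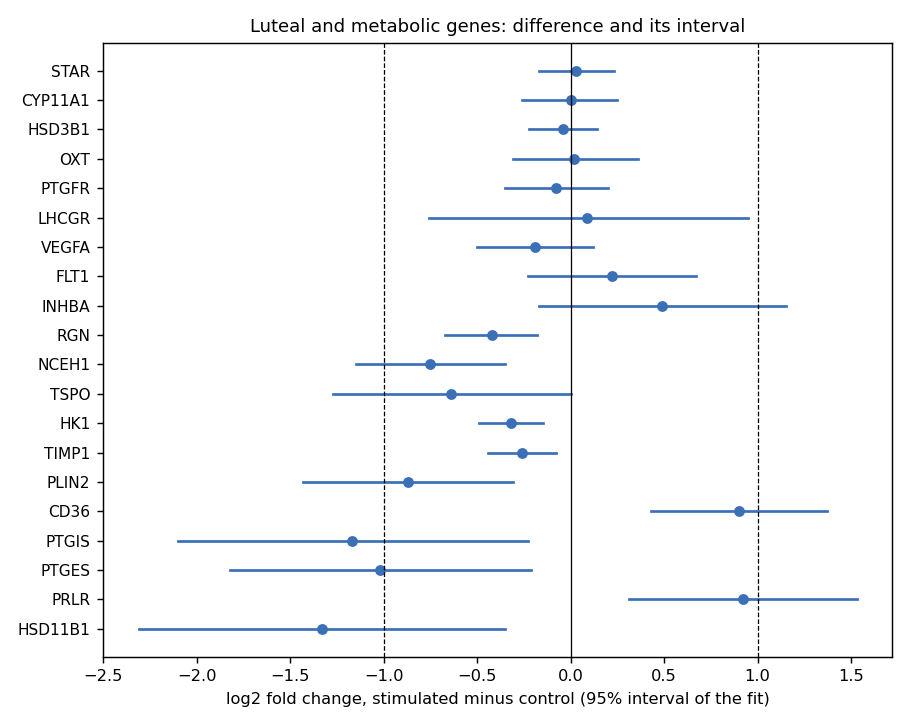
Log2 fold change of stimulated minus control (points) with its 95% interval from the fit (bars) for 20 luteal and metabolic genes; dashed lines mark 2-fold differences. STAR, CYP11A1 and HSD3B1 have intervals within 0.26 of 0, while those of NCEH1, PLIN2, PTGIS and HSD11B1 lie below 0 and those of CD36 and PRLR above it.

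Lipid supply and storage genes had small differences in most members and larger ones in a few. Cholesterol synthesis and uptake genes had a median of 0.15 with 17 of 20 positive, and the median was 0.06 to 0.22 with single animals left out, but 0 had an unadjusted p under 0.05 in either direction. PLIN2, which coats lipid droplets, had 12.32, 13.06 and 13.05 in control and between 11.79 and 12.03 in stimulated animals. That is lower in each stimulated animal than in any control, at -0.87 on the log2 scale (SE 0.24, adjusted p = 0.626). CD36, a membrane carrier of fatty acids, lay the other way at 8.83, 9.26 and 8.85 against 9.56, 10.13 and 9.96. It differed by 0.90 (SE 0.20, adjusted p = 0.523). ACADL, a dehydrogenase of fatty acid oxidation, had 0.72 (SE 0.20, adjusted p = 0.61).

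The acyl-CoA synthetases, which activate fatty acids for further use, included a pair of genes with small p values. ACSM1, a synthetase for medium-chain acids, had 4.41, 3.62 and 3.49 in control, 6.56, 5.61 and 5.84 in stimulated and 3.10, 3.18 and 3.18 in superovulated animals. Stimulated cows were thus above both other groups. They stood 2.17 above control (SE 0.30, adjusted p = 0.237) and 2.85 above superovulated animals (adjusted p = 0.08). ACSF2, a relative in mitochondria, had 9.16, 9.0 and 9.03 in control and 9.96, 9.86 and 10.13 in stimulated animals. Its groups were nearly 1 log2 unit apart, at 0.92 (SE 0.13, adjusted p = 0.255), and superovulated animals had 9.11, 8.76 and 9.24. Over the 33 measured genes of fatty acid handling the median was 0.0746. By an unadjusted p below 0.05, 4 were higher (12.1%, against 4.2% of all genes) and 1 lower (3.03%, against 3.04%).

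CERT1, a lipid carrier that brings ceramide to the Golgi for sphingomyelin synthesis, had the smallest p among the genes with higher signal. It had 5.71, 5.71 and 5.80 in control and 6.52, 6.44 and 6.53 in stimulated animals, a tight pair of groups 0.76 apart (SE 0.08, adjusted p = 0.0798). Superovulated animals lay between, at 6.08, 6.10 and 6.30. CERT1 alone of the 24 measured sphingolipid genes had an unadjusted p under 0.05 (4.17% higher, against 4.2% of all genes). Of the 24, 23 had intervals within a 2-fold change, and UGCG, which makes glucosylceramide, had 0.73 (SE 0.31, adjusted p = 0.78).

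Glycolysis and hypoxia genes had a median of -0.13 over 32 genes, 23 of them negative. By an unadjusted p below 0.05, 0 were higher and 4 lower (12.5%, against 3.04% of all genes). HK1, the hexokinase that opens glycolysis, had 10.45, 10.45 and 10.52 in control and 10.21, 10.24 and 10.02 in stimulated animals. The difference was small and even, at -0.32 (SE 0.07, adjusted p = 0.529). TPI1 and PKM, enzymes of its middle and last steps, had -0.30 (SE 0.10) and -0.63 (SE 0.22), also without overlap of the groups. Of the 32 genes 8 had all stimulated animals below all controls, or 25% where 6.34% of all genes did. Another 3 had them above all controls, where 6.49% of all genes did, and the list's differences ran from -0.63 to 0.84.

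Gonadotropin receptors and their signal proteins had differences in both directions. LHCGR, the luteinising hormone receptor, had 7.07, 5.44 and 5.88 in control and 6.49, 5.97 and 6.21 in stimulated animals. The controls spanned the stimulated values, and the interval of the difference, -0.76 to 0.95, nearly reaches 2-fold on each side. FSHR, the receptor of follicle-stimulating hormone, was dim at 2.19 to 2.32 in the 6 animals. Over 20 measured genes of gonadotropin receptors and cyclic AMP signalling the median was 0.0025, with 3 higher and 1 lower by an unadjusted p below 0.05. These are 15% and 5%, against 4.2% and 3.04% of all genes. PRKACB, a catalytic subunit of protein kinase A, had 8.27, 8.84 and 8.39 against 8.89, 9.16 and 9.03. PRKAR1A, a subunit that holds the kinase inactive, had 12.29, 12.38 and 12.28 against 12.09, 12.15 and 12.21. The catalytic subunit was thus higher by 0.53 (SE 0.17) and the inhibitory subunit lower by a log2 fold change of -0.17 (SE 0.06), neither passing (adjusted p = 0.703 and 0.723). PRLR, the prolactin receptor, was dim in all groups and had 0.92 (SE 0.27, adjusted p = 0.645).

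The activin system held opposite differences in a pair of binding proteins. FSTL3, a secreted antagonist of activin, had 9.59, 10.10 and 9.99 in control and 8.53, 8.46 and 8.49 in stimulated animals. Stimulated values were tightly grouped well below the controls, at -1.40 (SE 0.19, adjusted p = 0.237). FST, the related binding protein follistatin, had 7.99, 5.88 and 8.17 in control and 10.24, 10.01 and 9.65 in stimulated animals. Here the controls varied widely and the stimulated animals little, at 2.62 (SE 0.83, adjusted p = 0.698). The ligand subunit gene INHBA had 0.49 (SE 0.29) with overlapping groups. Over the 11 measured genes the median was -0.0399. FSTL3 had 9.43, 10.03 and 10.02 in superovulated animals, and stimulated animals were below these by -1.33 (SE 0.19, adjusted p = 0.171).

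**Figure D3:**
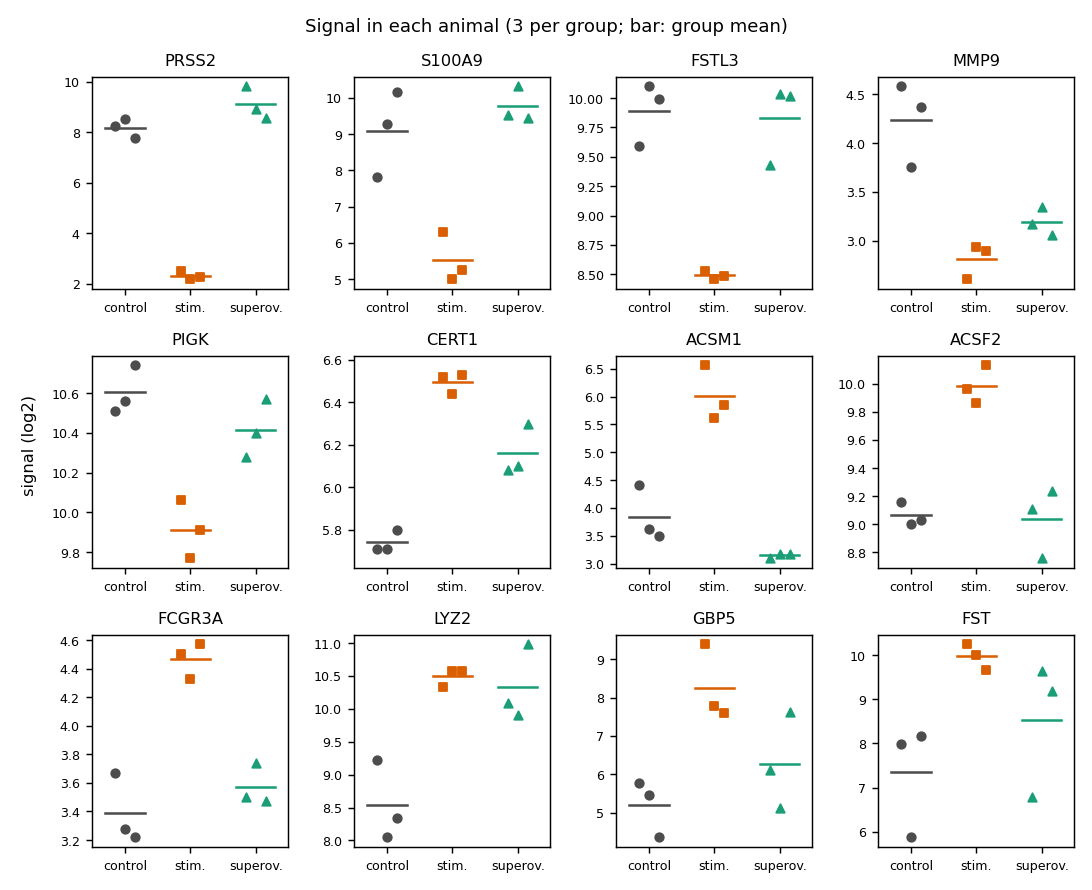
Log2 signal of 12 genes in each of 9 animals (points; 3 per group) with the group mean (bars); vertical axes differ between panels and do not start at 0. PRSS2, S100A9, FSTL3, MMP9 and PIGK are lower and the other 7 genes higher in all 3 stimulated animals than in any control.

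Immune genes gave the largest groups of differences in 1 direction. These lists, like all others here, were chosen with earlier results of these data known. Their shares beside those of all genes are therefore descriptions and not tests. Macrophages clear debris in the young corpus luteum and are recruited in number when it regresses. Of 30 measured markers of macrophages and monocytes, 28 were positive, with a median log2 fold change of 1.08. At an unadjusted p under 0.05, 15 were higher and 0 lower, or 50% against 4.2% of all genes, and 13 had all stimulated animals above all controls, as 6.49% of all genes did. None passed after adjustment over all probe sets. CD68, a lysosomal protein of macrophages, had 5.32, 5.38 and 4.57 in control and 6.14, 7.86 and 7.41 in stimulated animals. The highest control stood below the lowest stimulated animal by less than 1 log2 unit, and the difference of means was 2.04 (SE 0.59, adjusted p = 0.645). AIF1, a calcium-binding protein of macrophages, had 7.33, 7.46 and 6.28 against 8.34, 9.15 and 8.77. C1QC, a chain of the complement protein C1q that macrophages make, had 5.49, 5.26 and 4.03 against 6.34, 7.23 and 6.59.

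The third control animal was the lowest in each of these genes, and in the list's mean per animal. That mean was 5.52, 5.70 and 4.93 in control and 6.04, 6.77 and 6.32 in stimulated animals. Without the third control the count of higher markers was 7 and without the second stimulated animal 9, with medians of 0.86 and 0.76. Over all genes the count of higher genes was 232 without the third control and 420 without the second stimulated animal. CD14, a monocyte receptor named after its value was seen, overlapped between groups at 4.07, 6.78 and 3.56 against 5.22, 8.23 and 5.93. FCGR3A, an immunoglobulin receptor of macrophages and natural killer cells, was the most even member at 3.67, 3.28 and 3.22 against 4.50, 4.33 and 4.57. Its difference was 1.08 (SE 0.14, adjusted p = 0.2), and superovulated animals had 3.50, 3.74 and 3.47. LYZ2, a lysozyme, had 9.23, 8.05 and 8.34 against 10.33, 10.58 and 10.58, and 3 dimmer probe sets of it had values from -0.13 to 0.20. In superovulated animals 9 of the 30 markers were higher than in the same controls by an unadjusted p below 0.05, with a median of 0.52 (3.12% of all genes were higher and 2.14% lower). In bulk tissue, more cells of a type and more RNA per cell cannot be told apart.

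Genes induced by interferon, the antiviral and immune cytokine, were also mostly higher. Of 43 measured genes 39 were positive, the median was 0.54, and 22 were higher and 0 lower by an unadjusted p below 0.05. That is 51.2% against a background of 4.2%, and 16 had all stimulated animals above all controls (6.49% of all genes did). GBP5, an interferon-induced GTPase, had 5.77, 5.47 and 4.37 in control and 9.38, 7.79 and 7.60 in stimulated animals, a difference of 3.05 (SE 0.73, adjusted p = 0.529). Its next brightest probe sets had 2.85 and 2.42. UBA7, the enzyme that activates the ubiquitin-like ISG15, had 7.72, 7.91 and 7.36 against 9.09, 8.56 and 8.55. IRF9, part of the factor that interferon activates, had 6.94, 7.39 and 6.37 against 8.08, 7.80 and 8.02.

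Some classical antiviral effectors overlapped between the groups. ISG15 had 8.08, 9.66 and 7.64 in control and 10.41, 9.42 and 10.66 in stimulated animals, so the second stimulated animal stood below the second control. MX1, a GTPase against viruses, had 7.19, 8.24 and 7.34 against 9.09, 7.89 and 9.31 with the same crossing. IFI6 had 9.70, 10.51 and 9.05 against 11.32, 10.96 and 11.70 and did not overlap. These 3 genes were named after their values were seen. The list's mean per animal was 6.83, 7.27 and 6.75 in control and 7.89, 7.40 and 7.65 in stimulated animals. Leaving out single animals gave medians from 0.43 to 0.72. The count of higher genes was 12 without the first control, 10 without the third control and 13 without the first stimulated animal. Over all genes the count was then 351, 232 and 343, against 384 with all animals. In superovulated animals 1 of the 43 genes was higher than control by an unadjusted p below 0.05, with a median of 0.095. Stimulated against superovulated animals had 17 of the 43 genes higher and 0 lower at that threshold, where 4.19% of all genes were higher and 4.88% lower. None of the 43 passed after adjustment in either comparison. Macrophage markers were higher in the same 3 animals, and their part in the interferon and antigen presentation values was not tested.

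**Figure D4:**
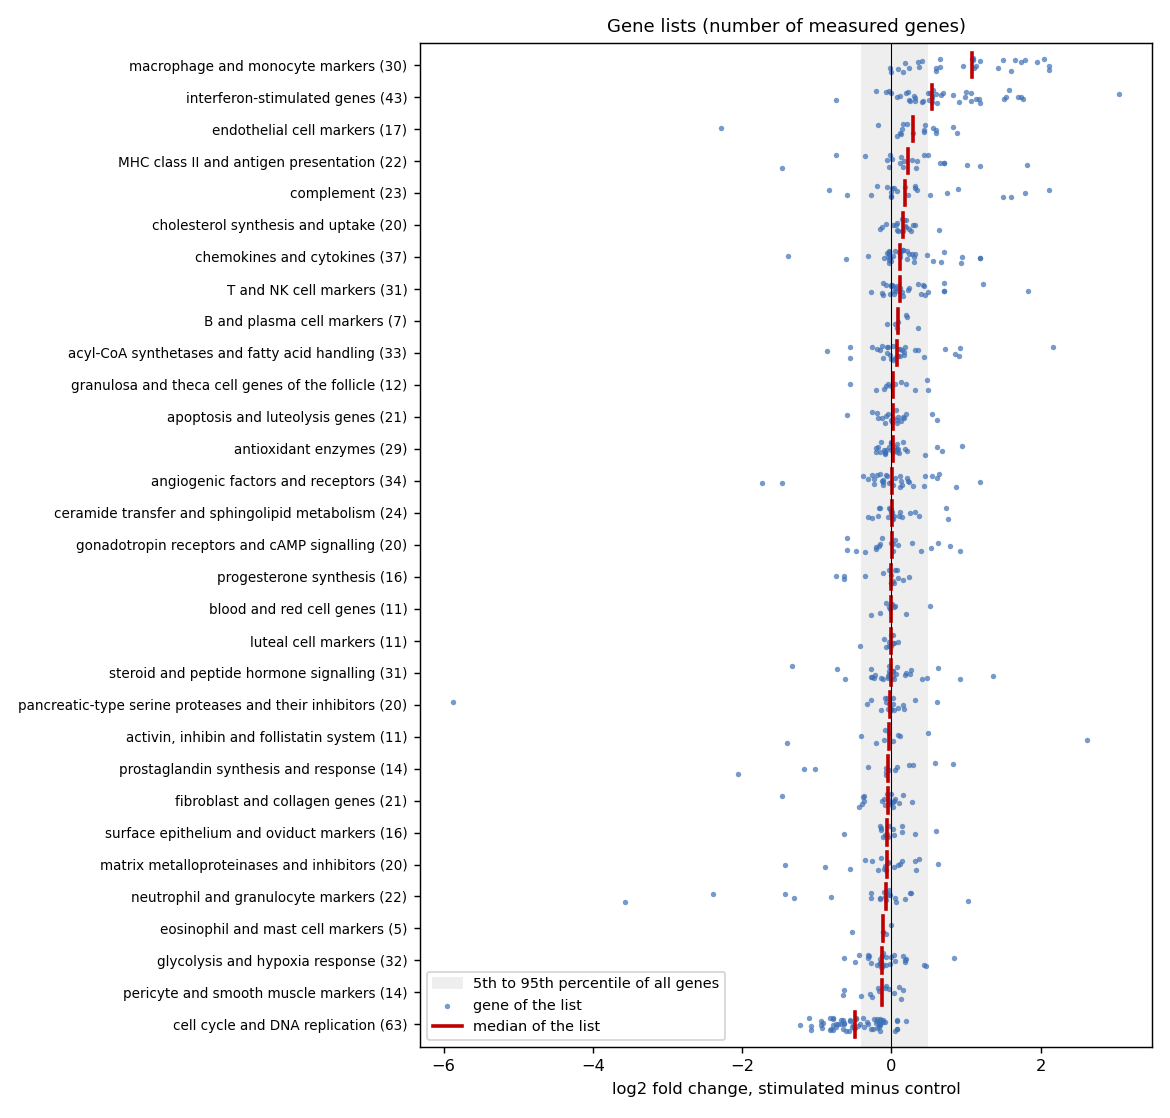
Log2 fold change of stimulated minus control for the genes of 31 lists (points), with each list's median (red) and the 5th to 95th percentile of all genes (grey, -0.39 to 0.47). Macrophage markers and interferon-stimulated genes have medians of 1.08 and 0.54, cell cycle genes -0.49, and the other lists lie between -0.13 and 0.29.

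A few neutrophil markers had lower signals in stimulated animals. S100A9, which forms calprotectin in neutrophils, had 7.81, 9.27 and 10.17 in control and 6.30, 5.00 and 5.24 in stimulated animals. Groups were well apart, at -3.57 (SE 0.61, adjusted p = 0.37), and superovulated animals had 9.54, 10.32 and 9.44. S100A8, its partner subunit, had 10.13, 10.99 and 11.53 against 9.63, 8.21 and 7.63, at -2.39 (SE 0.54, adjusted p = 0.523). MMP9, a gelatinase stored in neutrophil granules, had 4.58, 3.76 and 4.37 against 2.61, 2.94 and 2.90, at -1.42 (SE 0.21, adjusted p = 0.255). Superovulated animals were close to the stimulated ones for MMP9, at 3.17, 3.35 and 3.06, unlike for S100A9. The median of the 22 measured was -0.0813. By an unadjusted p below 0.05, 1 was higher (4.55%, against 4.2% of all genes) and 3 lower (13.6%, against 3.04%). In 5 all stimulated animals lay below all controls (6.34% of all genes did), and in 1 above them (6.49% did). ELANE was the 1 in both higher counts, dim at 2.39, 2.33 and 2.42 in control and 2.51, 2.5 and 2.65 in stimulated animals. Its difference was 0.18 (SE 0.06, adjusted p = 0.717). The list's differences ran from -3.57 to 1.02. The list's mean per animal was 3.77, 3.96 and 3.91 in control and 3.56, 3.47 and 3.39 in stimulated animals. The neutrophil markers S100A12 and MPO had -1.30 (SE 0.78) and -0.05, named after their values were seen.

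Lymphocyte and antigen presentation lists had smaller medians than macrophage and interferon genes, although single members differed by more than 1 log2 unit. Genes of MHC class II and antigen presentation had a median of 0.22 over 22 genes. By an unadjusted p below 0.05, 4 were higher (18.2%, against 4.2% of all genes) and 0 lower. BOLA-DMB, which helps load peptides onto class II molecules, had 6.88, 7.42 and 6.08 in control and 8.00, 7.99 and 7.92 in stimulated animals. The stimulated animals were nearly identical and the controls spread over more than 1 log2 unit, at a difference of 1.18 (SE 0.29, adjusted p = 0.536). B2M, the light chain of class I molecules, had 14.41, 14.73 and 14.25 against 14.84, 14.78 and 14.76. BOLA-DQA1 and BOLA-DQA2, class II chains named after their values were seen, had 1.81 (SE 0.85) and -1.47 (SE 1.57) with overlapping groups. For BOLA-DQA2 the stimulated animals split, at 3.22, 3.71 and 9.37. Without the third control the list had 2 higher genes, and without the second control it had 9. Over all genes 232 and 434 were then higher, against 384 with all animals. Markers of T and natural killer cells had a median of 0.11 over 31 genes, 25 of them positive. By an unadjusted p below 0.05, 4 were higher (12.9%, against 4.2% of all genes). CD8A, the coreceptor of cytotoxic T cells, had 2.73, 3.15 and 2.52 against 5.13, 3.18 and 3.76, and the second stimulated animal was level with the second control. GNLY, a granule protein of cytotoxic cells, had 4.05, 4.74 and 3.05 against 6.20, 4.39 and 6.73. Its groups overlapped, at 1.83 (SE 0.65, adjusted p = 0.717). Without the first stimulated animal the list's median was 0.0429 and 1 gene was higher. The count was 2 without the first control, the third control or the third stimulated animal, and 9 without the second stimulated animal. Of 7 measured B and plasma cell markers, 0 had an unadjusted p below 0.05.

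Chemokines draw leukocytes into tissue. Over 37 chemokines and cytokines the median was 0.11. By an unadjusted p below 0.05, 3 were higher (8.11%, against 4.2% of all genes) and 0 lower. CCL14 had 9.09, 10.21 and 9.06 in control and 10.68, 10.67 and 10.54 in stimulated animals, and differed by 1.18 (SE 0.28, adjusted p = 0.529). The controls split here, with the second close to the stimulated animals. Only without that control did CCL14 pass, with a difference of 1.56 (adjusted p = 0.0177). Leaving out the control nearest to the stimulated animals raises the difference and lowers the spread by itself, so that pass adds no support. CCL3, which attracts monocytes, had 4.34, 4.48 and 4.48 against 4.82, 4.67 and 4.71. In the complement list 4 of 23 genes (17.4%, against 4.2% of all genes) were higher by an unadjusted p below 0.05. All 4 (C1QA, C1QB, C1QC and VSIG4) also belong to the macrophage list.

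**Figure D5:**
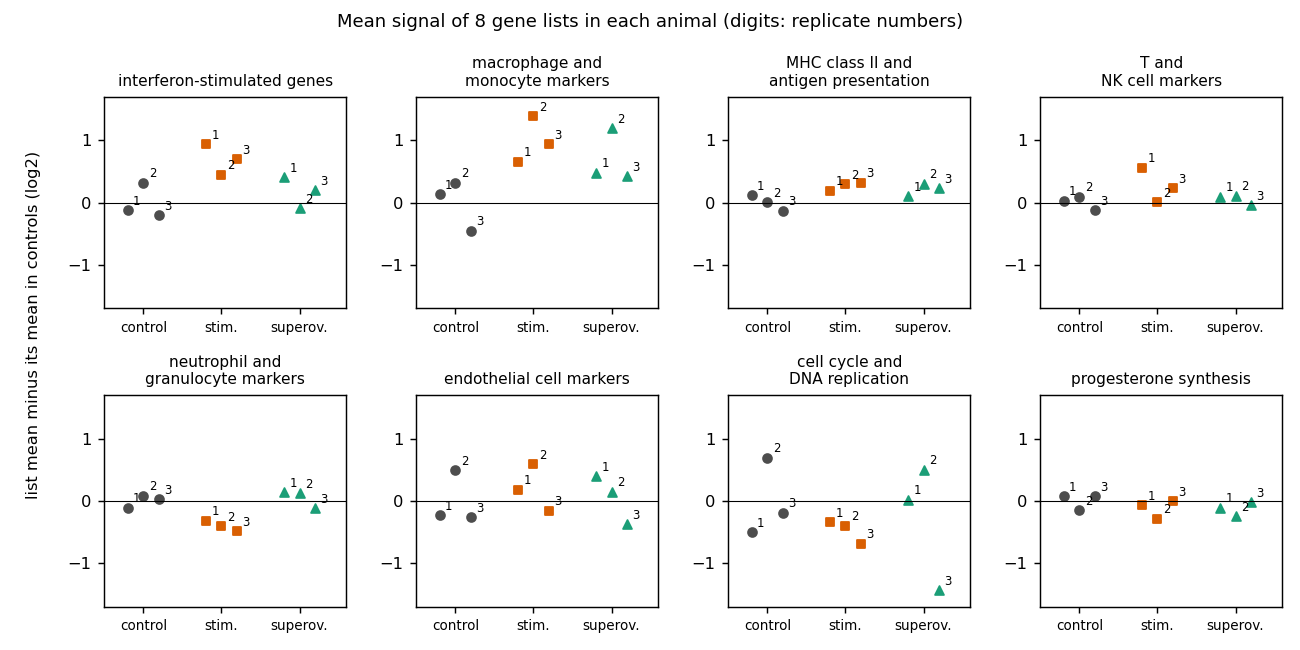
Mean log2 signal of 8 gene lists in each of 9 animals, less the mean of the controls; digits are replicate numbers and all panels share 1 scale. Macrophage and interferon panels have all 3 stimulated animals above all controls, and the neutrophil panel has them below. The neutrophil list's median difference was only -0.0813, with single members down to -3.57. In the cell cycle and endothelial panels the second control stands apart from the other controls.

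Cell cycle genes were lower in the stimulated group mainly against 1 control animal. Luteal endothelium and other cells still divide in the first week of the gland. Of 63 measured genes 57 were negative with a median of -0.49, but 0 were higher and 2 lower (3.17%) by an unadjusted p below 0.05, a share near the 3.04% of all genes. The list's mean per animal was 7.32, 8.51 and 7.63 in control and 7.48, 7.42 and 7.13 in stimulated animals. Without the second control the median was -0.11 with 45 genes negative, and without the first control it was -0.70. In 4 of the 63 genes all controls stood above all stimulated animals, where 6.34% of all genes did. CDKN2C, an inhibitor of cyclin-dependent kinases, was 1 of them. It had 9.64, 9.53 and 9.30 against 8.98, 8.74 and 8.81, at -0.65 (SE 0.17, adjusted p = 0.572). LIG1, the ligase that joins newly made DNA, had 6.13, 6.72 and 6.31 against 5.85, 5.83 and 5.83. CDK1, the kinase that starts mitosis, had 8.74, 10.46 and 9.12 against 9.18, 8.58 and 8.19 and was named after its value was seen.

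The vascular genes again had the second control above the others, and the second stimulated animal was also the highest of its group. Endothelial markers had a median of 0.29 over 17 genes, 15 of them positive, and 0 had an unadjusted p below 0.05. Differences in this list ran from -2.28 to 0.88. The list's mean per animal was 7.25, 7.97 and 7.22 in control and 7.66, 8.07 and 7.32 in stimulated animals, so the groups overlapped. Superovulated animals had 7.88, 7.63 and 7.11. The median was 0.56 without the second control, with 7 genes higher, where 434 of all genes were higher (384 with all animals). It was 0.12, 0.17 and 0.14 without the first control, the third control and the second stimulated animal. PECAM1 and CDH5, adhesion proteins of endothelial junctions, had 0.16 (SE 0.40) and 0.60 (SE 0.41), named after their values were seen. Among angiogenic factors and receptors the median was 0.0105 over 34 genes, with 1 higher and 1 lower by an unadjusted p below 0.05. Each is 2.94%, against 4.2% and 3.04% of all genes. The mean of these 34 genes was 7.14, 7.55 and 7.14 in control and 7.10, 7.59 and 7.20 in stimulated animals. It was 7.31, 7.61 and 7.23 in superovulated animals. VEGFA, the main angiogenic growth factor, had 11.84, 12.33 and 12.09 in control and 11.92, 11.90 and 11.87 in stimulated animals, with an interval from -0.50 to 0.12. Its receptor FLT1 had an interval from -0.23 to 0.67, and the receptor KDR was dim, with means of 2.40 and 2.54. ANGPT1, a ligand that steadies new vessels, had 4.62, 4.58 and 4.00 against 5.14, 5.06 and 5.62, at 0.87 (SE 0.21, adjusted p = 0.529). NOS2, the inducible nitric oxide synthase, had 8.05, 8.39 and 6.59 against 6.39, 5.88 and 5.55, at -1.74 (SE 0.44, adjusted p = 0.565). It is made by several cell types, and superovulated animals had 6.49, 6.49 and 6.44.

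Of 14 measured genes of prostaglandin synthesis and response none passed, and the median was -0.049. In 3 of the 14, all enzymes, all stimulated animals lay below all controls, as 6.34% of all genes did. In 1, the prostaglandin E receptor PTGER4, they lay above all controls, as 6.49% of all genes did. PTGER4 had 5.34, 5.51 and 4.32 in control and 5.99, 6.02 and 5.66 in stimulated animals, at 0.83 (SE 0.39, adjusted p = 0.786). PTGIS, which makes prostacyclin, had 10.45, 10.63 and 10.38 in control and 8.71, 9.52 and 9.72 in stimulated animals. PTGES, which makes prostaglandin E, had 3.74, 3.94 and 4.67 against 3.0, 3.07 and 3.22. In each all controls stood above all stimulated animals, with differences of -1.17 for PTGIS (SE 0.40, adjusted p = 0.717) and -1.02 for PTGES (SE 0.35, adjusted p = 0.71). AKR1B1, an aldose reductase that can make prostaglandin F, had 10.57, 10.77 and 10.51 against 10.28, 10.43 and 10.21, at -0.31 (SE 0.13). PTGDS, which makes prostaglandin D and was named after its value was seen, had the list's lowest difference of -2.06 (SE 1.08), with overlapping groups. PTGFR, the receptor through which prostaglandin F ends the life of the corpus luteum, had 13.90, 13.88 and 13.90 against 13.90, 13.80 and 13.76. Its interval ran from -0.35 to 0.20. Over the 14 measured genes 0 were higher and 2 lower by an unadjusted p below 0.05 (14.3% lower, against 3.04% of all genes). HSD11B1, which regenerates active glucocorticoid, had 8.41, 8.41 and 8.92 against 8.09, 6.78 and 6.89, at -1.33 (SE 0.42, adjusted p = 0.703).

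Structural and matrix genes had medians near 0. Collagen and fibroblast genes had a median of -0.0492 over 21 genes, and 0 had an unadjusted p below 0.05. Pericyte and smooth muscle markers had -0.13 over 14 genes with 1 lower (7.14%, against 3.04% of all genes). TIMP1, an inhibitor of matrix metalloproteinases, had a mean of 14.39 (SD 0.11) in control and values of 14.17, 14.17 and 14.05 in stimulated animals. All controls stood above them, with a difference of -0.26 (SE 0.08, adjusted p = 0.645), and -0.25 came from another probe set. PLAU, the plasminogen activator urokinase, had 9.63, 10.68 and 9.97 against 9.35, 9.37 and 8.90. Of 20 metalloproteinases and inhibitors, 0 were higher and 3 lower by an unadjusted p below 0.05 (15% lower, against 3.04% of all genes). The 3 are MMP9, TIMP1 and PLAU.

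Several genes outside these lists had small p values and groups that did not overlap. SLC39A14, a carrier of zinc, iron and manganese, had 10.97, 10.71 and 10.54 in control and 11.88, 11.54 and 11.43 in stimulated animals. ITCH, a ubiquitin ligase, had 5.55, 5.78 and 5.41 against 6.03, 6.07 and 6.20, and superovulated animals lay below the controls at 5.23, 5.26 and 5.28. Stimulated animals thus had the highest ITCH of the groups, by 0.52 over control (SE 0.10, adjusted p = 0.429) and 0.84 over superovulated animals (adjusted p = 0.0972). FGG, a chain of the clotting protein fibrinogen, had 10.64, 10.97 and 8.96 against 12.09, 12.48 and 12.40.

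Among genes with lower signal, several were bright and tightly measured. RHOA, a GTPase of the cytoskeleton, had 11.55, 11.55 and 11.54 in control and 11.18, 11.32 and 11.28 in stimulated animals. UBE2V1, a cofactor of ubiquitin chain formation, had 11.70, 11.68 and 11.69 against 11.46, 11.42 and 11.47. These differences of -0.29 (SE 0.06) and -0.24 (SE 0.05) for RHOA and UBE2V1 were larger than the spread between animals yet missed the threshold (adjusted p = 0.463 and 0.523). PIGK, a subunit of the GPI transamidase, had 10.51, 10.56 and 10.74 against 10.06, 9.77 and 9.91, and its second probe set had -0.85 (SE 0.14). BZW1, a regulator of translation, had -0.40 (SE 0.08) on its brighter probe set and 0.00 on the other, so its probe sets disagree. NUDT10 and NUDT11, close relatives that cleave inositol pyrophosphates, had -1.18 (SE 0.21) and -1.73 (SE 0.41). Their sequences are so alike that the array may not separate them.

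The remaining genes with the smallest p values or the largest differences did not pass either. LOC510377, a gene with no given name, had 7.06, 7.08 and 6.91 in control and 7.83, 7.64 and 7.78 in stimulated animals, at 0.73 (SE 0.08, adjusted p = 0.0798). ST6GALNAC2, a sialyltransferase, had 4.71, 5.02 and 4.61 against 5.65, 6.14 and 5.55. LZTS2, a leucine zipper protein, and PLAC8A had differences of 0.43 (SE 0.08) and 0.56 (SE 0.11). A second probe set of PLAC8A had -0.02, so its probe sets disagree. LOC504773 had 8.70, 9.82 and 7.04 against 10.15, 11.16 and 10.42, with controls that spread over more than 2 log2 units.

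On the lower side, LOC613358 had 8.73, 8.36 and 11.45 in control and 6.28, 7.89 and 5.39 in stimulated animals, at -2.99 (SE 0.92, adjusted p = 0.687). Both groups were widely spread. MIOX, an oxygenase of inositol, had 8.07, 6.26 and 7.06 against 6.11, 4.93 and 5.23. MT2A, a metallothionein that binds zinc and copper, had a difference of -1.56 (SE 0.68). GSTO1, a glutathione transferase, had a mean of 10.52 (SD 0.19, n = 3) in control and 9.86 (SD 0.13, n = 3) in stimulated animals. BCLAF1, a regulator of transcription and splicing, had 7.41, 7.33 and 7.37 against 6.89, 6.75 and 6.92. KCNMA1, a potassium channel, had 4.89, 4.60 and 4.55 against 4.01, 3.09 and 3.17, while its 3 dimmer probe sets had -0.10 to 0.04.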

How the data were processed

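Biotin-labelled cRNA from the RNA of 1 cow was measured on each Affymetrix bovine array, per the labels' protocols. The deposited values are digit runs whose decimal mark is lost; with it restored they run from 0.85 to 15.19 and are read as log2 signals. For log base, summarisation and normalisation by the authors, the labels give nothing. Runs starting with 1 have 2 possible readings (15.5% of cells). Other arrays settled 1563 probe sets; of those open on all 9 arrays, spread between arrays placed 2984 as 1x.x and 17 as 1.x at a posterior of 0.95 (0.6 errors expected), and 54 non-control probe sets stayed undecided and were left out, among them probe sets of COL3A1, FN1, CCN2 and FABP3.

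The array's probe table gave 1 symbol for 13292 probe sets, several for 86 and none for 10638. A gene is represented by its probe set of highest mean. Groups were fitted together with limma 3.58.1 in R 4.3.3 (6 residual degrees of freedom), 2-sided, with Benjamini-Hochberg adjustment over 23962 probe sets; the threshold was an adjusted p of 0.05. The fit was tested on simulated data. Gene lists are described by counts and medians, with no set test. Members and lists were chosen with earlier results of these data known. Named are passing genes, per direction the 12 genes of smallest p and the 8 largest differences (brighter group at 6 or more) without overlap, and 12 fixed luteal and vascular genes; from up to 5 genes of smallest p per list, examples are given; other names are marked. Labels number the animals 1 to 3 within a group as biological replicates. The labels name no batch. Precision is limited by the number of arrays.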

Additional observations from a re-analysis of the deposited data

How the results depend on the processing

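Alternatives were the 6 stimulated and control arrays alone, each array left out, quantile normalisation, no dim bin of probe sets (the lowest of 3 equal bins), no open digit runs, a trended and robust prior, the mean of all probe sets of a gene, and a replicate block. PRSS2, with its single probe set, kept its direction in each one run for it, from -6.08 to -5.68 with single animals left out, and its adjusted p was 0.000724 to 0.0503, past the threshold except without stimulated replicate 3 (-5.83). With single animals left out, 0 to 1 probe sets passed as higher and 0 to 1 as lower, and 555 to 961 were higher and 435 to 717 lower at an unadjusted p under 0.05. Without the dim bin of probe sets 404 were lower at that p, with fewer tested. Equal replicate numbers gave correlations of deviations from the group mean of 0.152, 0.276 and -0.0381 between stimulated and control animals, and of 0.202, 0.377 and 0.158 between stimulated and superovulated animals. Of the 9 such pairs over all groups 8 were positive, but not every one was over 0.1 and control 3 did not correlate best with its own number in stimulated animals, so the numbers were not taken as pairs. With the replicate block 2 probe sets passed as higher, 1 of FABP5 (2.80, adjusted p = 0.0464) and 1 without a symbol (1.98, adjusted p = 0.0464), both named after their values were seen, and PRSS2 passed as lower (adjusted p = 0.0113). On probe sets with no open run the median of progesterone synthesis genes was -0.50, since the bright members drop out. Without the dim bin, the median of neutrophil markers was -0.55, over fewer genes. Under quantile normalisation GATA1 changed sign, to 0.00. Genes near 0 also changed sign with single animals left out: CYP11A1 ran from -0.07 to 0.06, STAR from -0.03 to 0.08, OXT from -0.02 to 0.09, LHCGR from -0.25 to 0.56, INHA from -0.33 to 0.04, FCER1A from -0.57 to 0.14, GATA1 from -0.06 to 0.04, HBB from -0.08 to 0.46 and HBE1 from -0.01 to 0.07. The medians over single animals left out ran from 0.43 to 0.72 for interferon genes, 0.76 to 1.18 for macrophage markers and -0.70 to -0.11 for cell cycle genes. Counts of list members with animals left out were added after seeing the data. Probe sets near background have no detection call here, so their levels are bounds at best.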
